A study of Mus musculus with 2 samples.

Results

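The tumour necrosis factor (TNF) superfamily ligands, their receptors and the TRAF adaptor proteins were read in regulatory T cells (Tregs, suppressive CD4 T cells defined by the transcription factor Foxp3) that lacked the T cell zinc finger transcription factor Bcl11b. Members were the gene probes whose name on the array starts with Tnfrsf or Tnfsf, or is Tnf, Lta, Ltb, Ltbr, Cd27, Cd40, Cd40lg, Cd70, Fas, Ngfr or Traf1 to Traf6. They were 47 genes of 27975 on the array, comprising 25 receptors, 16 ligands and 6 TRAFs, read by 65 of 41174 probes. Deletion was driven by 2 Cre recombinases, with 1 two-colour array for each. The Cd4Cre array set sorted Foxp3-GFP Tregs of Bcl11bF/F/Cd4Cre/Foxp3-GFP+ mice against wild-type Foxp3-GFP Tregs, where GFP reports Foxp3 expression. The Foxp3Cre array set sorted Tregs of Bcl11bF/F/Foxp3Cre mice against wild-type Tregs, and the labels give no marker for that sort. Neither array's labels name its Cre: the assignment rests on the reporter wording of the first array's labels, which the study design gives for the Cd4Cre mice, and every value called Cd4Cre or Foxp3Cre depends on it. Cd4Cre deletes early, in developing thymocytes that do not yet make Foxp3, so every T cell lineage that passes through a Cd4-positive stage is touched in those mice, whereas Foxp3Cre acts in cells that already express Foxp3. All 4 pools are labelled C57BL\6. Each wild-type pool came from 3 mice, and the number of mice behind each deficient pool, the ages, and whether the wild-type mice carried Cre are not given in the sources used here. Deficient RNA was in Cy5 and wild-type RNA in Cy3 on both arrays, so any dye bias of a probe cannot be told apart from genotype. With 1 array per Cre system there is no replicate check of any single-array difference.

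Ligands of the superfamily are mostly trimeric proteins of the cell surface, some of them shed, and their receptors cluster on binding. Receptors without a death domain recruit TRAF proteins, which lead to NF-kappaB and to MAP kinases, while death receptors can also start caspase-dependent killing. In Tregs, Tnfrsf4 (OX40), Tnfrsf18 (GITR), Tnfrsf1b (TNFR2), Tnfrsf9 (4-1BB) and Cd27 are known costimulatory receptors that support survival and expansion, and Traf3 is known to restrain non-canonical NF-kappaB signalling by keeping the kinase Map3k14 (NIK) at a low level.

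Each gene is represented by its brightest probe, and detection means that this probe stood well above background in 1 channel or both. In all, 15877 genes passed for Cd4Cre and 15186 for Foxp3Cre, 14375 of them in both. Signals are linear array units after normalization, comparable between pools for 1 gene but not between genes, and ratios are log2 of deficient over wild type. Bcl11b itself read 8708 in Cd4Cre-deficient cells and 47933 in wild-type cells (log2 ratio −2.46), and 9001 in Foxp3Cre-deficient cells and 31675 in wild-type cells (−1.82); whether its probe lies in the deleted segment is not given. All 5 Treg markers examined (Foxp3, Il2ra, Ctla4, Ikzf2, Gpr83) were at least 2-fold lower in Cd4Cre-deficient cells, with a summed signal of 9835 against 120948 in wild type (85041 of it from Gpr83), although both pools are labelled as sorted for the Foxp3 reporter. Foxp3 read 489 in those deficient cells and 5810 in wild type. On the Foxp3Cre array the same sum was 29611 in deficient cells and 33993 in wild-type cells, with markers on both sides: Ctla4 was at least 2-fold higher (1.22), Ikzf2 had 0.62, and Gpr83 (−0.94), Il2ra (−0.37) and Foxp3 (−0.20) were below 0. Detected probes there ran from −0.29 to 0.96 for Ikzf2 and from −0.37 to 0.55 for Il2ra, so their signs depended on the probe. Sums over a marker list are weighted to its bright probes and serve only to set pools of 1 array side by side. Markers of NK cells (5 of 5), CD8 T cells (2 of 2), myeloid cells (5 of 8), dendritic cells (2 of 4) and B cells (2 of 5 detected; Pax5 was not detected) were at least 2-fold higher in Cd4Cre-deficient cells, with 2 of the 8 myeloid markers at least 2-fold lower. In bulk pools such as these, fewer cells of a type and less RNA per cell cannot be told apart.

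Of the 47 members, 42 were detected in the Cd4Cre and 38 in the Foxp3Cre comparison. The ligands Tnfsf12, Tnfsf15 and Tnfsf18 and the receptors Tnfrsf11b and Tnfrsf23 were not well above background in any pool. In Cd4Cre-deficient cells, 7 members were at least 2-fold higher than in wild type (Tnfrsf17, Tnfsf14, Tnfrsf13c, Tnfsf8, Cd40, Ltbr and Tnfrsf14), against a background of 11.4% of all detected genes, and 6 were at least 2-fold lower (Cd27, Tnfrsf4, Traf3, Tnfrsf12a, Tnfrsf1b and Traf1), against a background of 10.6%. In Foxp3Cre-deficient cells only Tnfsf11 was at least 2-fold higher, where 2.93% of all detected genes were, and only Cd27 was at least 2-fold lower, where 11.5% were. No member was at least 2-fold higher on both arrays, where 1.34% of the genes detected on both were, and Cd27 was the single member at least 2-fold lower on both, where 4.56% were. The median log2 ratio of the detected members was −0.05 for Cd4Cre and 0.13 for Foxp3Cre, against −0.05 and −0.08 for all detected genes. Members just short of 2-fold on the Cd4Cre array were Tnfsf10 (0.96), Tnfrsf18 (−0.94), Tnfsf12-tnfsf13 (0.93) and Tnfrsf11a (0.84), and the closest inside it was Traf1 (−1.07).

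**Figure D1:**
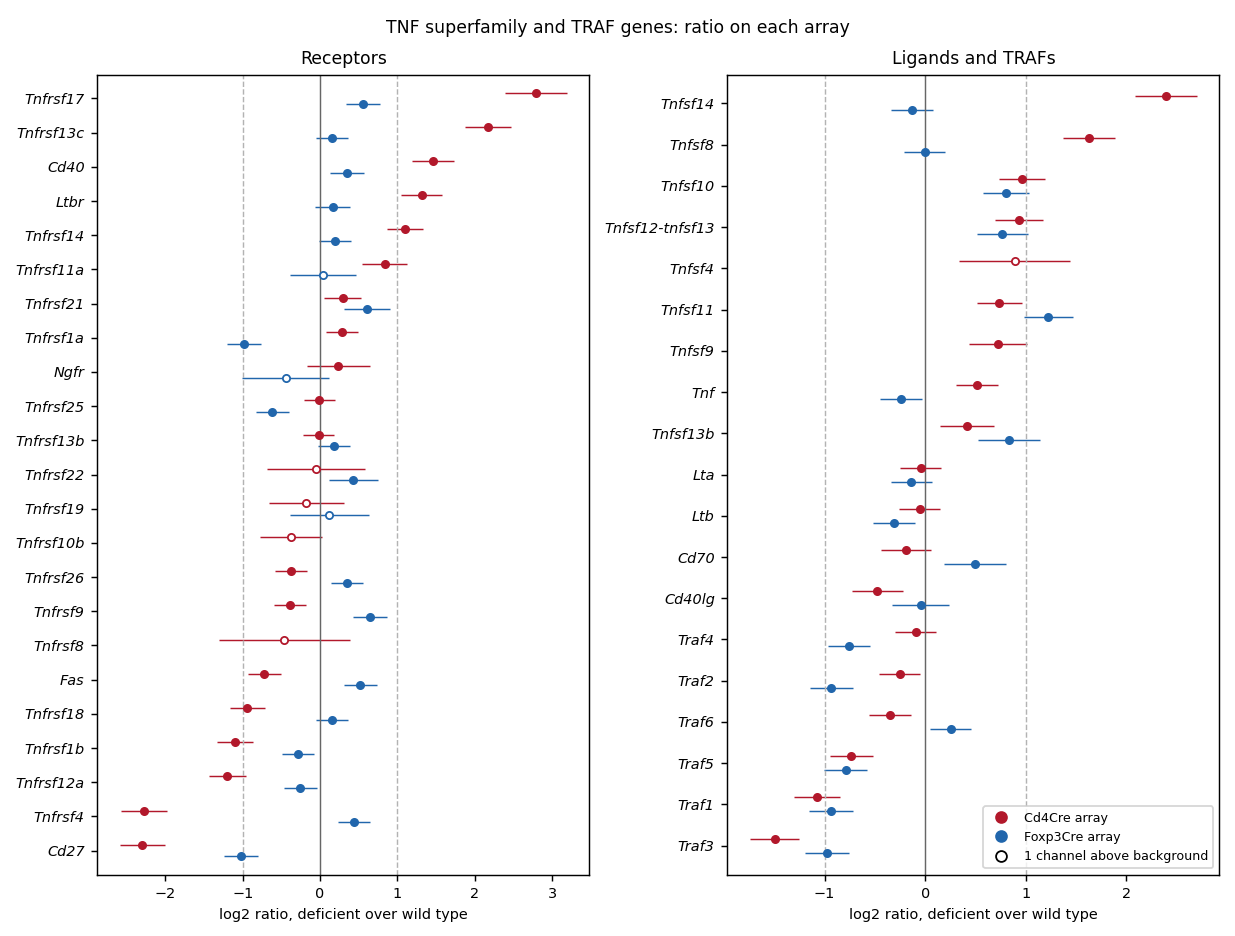
Log2 ratio of deficient over wild type for each detected member for Cd4Cre (red) and Foxp3Cre (blue), receptors at left and ligands and TRAFs at right, 1 array per point. Bars are the scanner software's error for the probe's spots (not a replicate error), open points had only 1 channel above background, and dashed lines mark 2-fold; the red points run from −2.30 (Cd27) to 2.79 (Tnfrsf17) and the blue ones from −1.02 (Cd27) to 1.22 (Tnfsf11).

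Measurement error was estimated from repeated spots and by the scanner software. For the 7 members whose brightest probe is printed on 10 spots, the SD of the log2 ratio over those spots was 0.017 to 0.061 for Cd4Cre and 0.037 to 0.086 for Foxp3Cre. The scanner software's own error estimate for detected members had a median of 0.24 for Cd4Cre and 0.22 for Foxp3Cre (log2 units). Neither covers mice, sorts or labelling reactions. The normalization mattered more for bright genes: for genes with a mean log2 signal of 14 or more, the median ratio was 0.04 and −0.05 with loess on the Cd4Cre and Foxp3Cre arrays, but 0.93 and 0.87 when the ratios were only centred on their median. That median centring itself moved the median of all detected genes to 0.07 and 0.16. Values for bright members are therefore given both ways.

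The regulatory sequence just upstream of 4 members is shown because these lay at least 2-fold from wild type on the Cd4Cre array, in both directions, and held 1 of the 4 motifs searched. Each line gives the 250 bases before the annotated start of the gene in the RefSeq table of the GRCm38.p6 assembly, 5′ to 3′ in the direction of the gene, and capitals mark the motif. Traf3 lies at chr12:111166120-111166369 (plus strand) with a match to the NF-kappaB motif, Traf1 at chr2:34961773-34962022 (minus strand) with the Runx motif TGTGGT, Tnfrsf13c at chr15:82224381-82224630 (minus strand) with the same motif on the other strand (ACCACA), and Tnfsf14 at chr17:57194182-57194431 (minus strand) with the AP-1 motif TGANTCA.
Traf3: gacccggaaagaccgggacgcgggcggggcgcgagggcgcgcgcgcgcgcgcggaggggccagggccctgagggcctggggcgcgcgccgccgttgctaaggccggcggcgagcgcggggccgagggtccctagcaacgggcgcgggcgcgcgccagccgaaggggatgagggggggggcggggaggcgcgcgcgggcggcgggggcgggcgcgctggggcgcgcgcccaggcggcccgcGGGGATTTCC
Traf1: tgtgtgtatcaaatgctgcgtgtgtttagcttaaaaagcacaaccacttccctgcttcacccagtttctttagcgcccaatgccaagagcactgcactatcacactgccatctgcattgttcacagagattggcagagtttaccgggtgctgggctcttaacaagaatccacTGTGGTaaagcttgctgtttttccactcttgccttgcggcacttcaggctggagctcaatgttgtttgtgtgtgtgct
Tnfrsf13c: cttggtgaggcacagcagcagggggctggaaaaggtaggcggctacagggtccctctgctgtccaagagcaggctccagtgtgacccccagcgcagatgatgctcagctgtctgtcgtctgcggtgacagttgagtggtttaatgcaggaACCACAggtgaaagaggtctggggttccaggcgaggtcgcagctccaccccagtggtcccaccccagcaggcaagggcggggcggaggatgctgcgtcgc
Tnfsf14: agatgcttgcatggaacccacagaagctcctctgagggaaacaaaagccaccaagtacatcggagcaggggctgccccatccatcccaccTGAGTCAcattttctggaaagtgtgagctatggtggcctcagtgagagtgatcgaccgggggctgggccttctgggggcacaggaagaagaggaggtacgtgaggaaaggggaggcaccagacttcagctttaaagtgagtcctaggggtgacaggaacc
The first letter of the match was 10 bases upstream of the start in Traf3, 78 in Traf1, 100 in Tnfrsf13c and 160 in Tnfsf14. A window was found for 36 of the 47 members and for 12 of the 13 members at least 2-fold from wild type on the Cd4Cre array, of which these 4 held a motif. Searched on both strands, the NF-kappaB, AP-1 and Runx motifs were each in 13.9% of the members with a window, and the forkhead motif TGTTTAC was in 2.78%. Among all genes with a window the shares were 8.23% for NF-kappaB, 7.82% for AP-1, 15.9% for Runx and 3.54% for forkhead, and no match overlapped another in the 4 sequences shown. A match is a string of letters in a window, not a measured binding site.

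Among 8 T cell costimulatory receptors, 3 were at least 2-fold lower in Cd4Cre-deficient cells (Tnfrsf4, Tnfrsf1b, Cd27) and 1 was at least 2-fold higher (Tnfrsf14). Of all detected genes, 10.6% were that much lower and 11.4% that much higher. The median log2 ratio of the 8 receptors was −0.70 with loess, −0.30 under median centring and −1.07 in the scanner software's own ratio. For Foxp3Cre 7 of the receptors were detected, with a median of 0.15. Cd27 alone was at least 2-fold lower there, where 11.5% of all detected genes were. Cd27, which binds Cd70 and supports T cell survival, read 5433 in Cd4Cre-deficient cells and 26756 in wild-type cells, 4.92-fold lower (log2 ratio −2.30, software error 0.29). In the Foxp3Cre pools it read 8665 in deficient cells and 17575 in wild-type cells, 2.03-fold lower (−1.02, software error 0.22). Both deficient pools thus read below their wild-type pools, but the Foxp3Cre value was −0.42 with median centring and −0.87 with the software's ratio, short of 2-fold. Beside these receptors, all 5 Treg markers and 2 of 6 T cell markers (Cd4, Trac) were at least 2-fold lower in Cd4Cre-deficient cells. The summed T cell marker signal was 213644 in deficient and 327938 in wild-type cells. On the Foxp3Cre array 1 of the 6, Trac, was at least 2-fold lower (−2.42). Their part in the Cd27, Tnfrsf4 and Tnfrsf1b values was not tested. The Cd27 probe lies at chr6:125183076-125183135 on mm9.

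Tnfrsf4, the receptor OX40, had the largest difference between the arrays of any member. It read 23913 in Cd4Cre-deficient cells and 116145 in wild-type cells, 4.86-fold lower (log2 ratio −2.28, software error 0.30), with −1.29 under median centring. The Foxp3Cre-deficient pool read 49816 and its wild-type pool 36607 (0.44), with 1.47 under median centring. The direction was thus opposite in the Cre systems under both normalizations. Its genomic neighbour Tnfrsf18, the receptor GITR, whose probe lies 12.2 kb away on chromosome 4, read 57511 in Cd4Cre-deficient cells and 110339 in wild-type cells, 1.92-fold lower (−0.94). Under median centring that ratio was 0.23, so the direction for Tnfrsf18 on the Cd4Cre array depended on the normalization. Tnfrsf18 read 57203 in Foxp3Cre-deficient cells and 51385 in wild-type cells (0.15, and 1.27 under median centring).

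Tnfrsf1b, the TNF receptor favoured by Tregs, read 4008 in Cd4Cre-deficient cells and 8591 in wild-type cells, 2.14-fold lower (log2 ratio −1.10). Its other detected probe gave −0.81, and median centring gave −0.83 for the brighter probe, both short of 2-fold. It read 3202 in Foxp3Cre-deficient cells and 3894 in wild-type cells (−0.28). Tnfrsf14 (HVEM), which binds Tnfsf14 and Lta, was higher on the Cd4Cre array, with 1927 in deficient cells and 899 in wild-type cells, 2.14-fold higher (1.10), and 0.88 on its other probe. It read 1855 in Foxp3Cre-deficient cells and 1617 in wild-type cells (0.20). On the Cd4Cre array the brightest probes of Tnfrsf9 and Tnfrsf25 lay closer to wild type with loess. Tnfrsf9 (4-1BB) had ratios of −0.38 and 0.64 on the Cd4Cre and Foxp3Cre arrays from its brightest probe and −1.35 and −0.12 from a dimmer one, so its probes disagreed in sign on the Foxp3Cre array. Median centring gave −0.09 and 1.06 for the brightest Tnfrsf9 probe. Tnfrsf25 (DR3) had −0.01 and −0.62, with 0.85 and 0.16 under median centring. Tnfrsf8 (CD30) was well above background only in the wild-type pool of the Cd4Cre array, where no fold could be given.

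**Figure D2:**
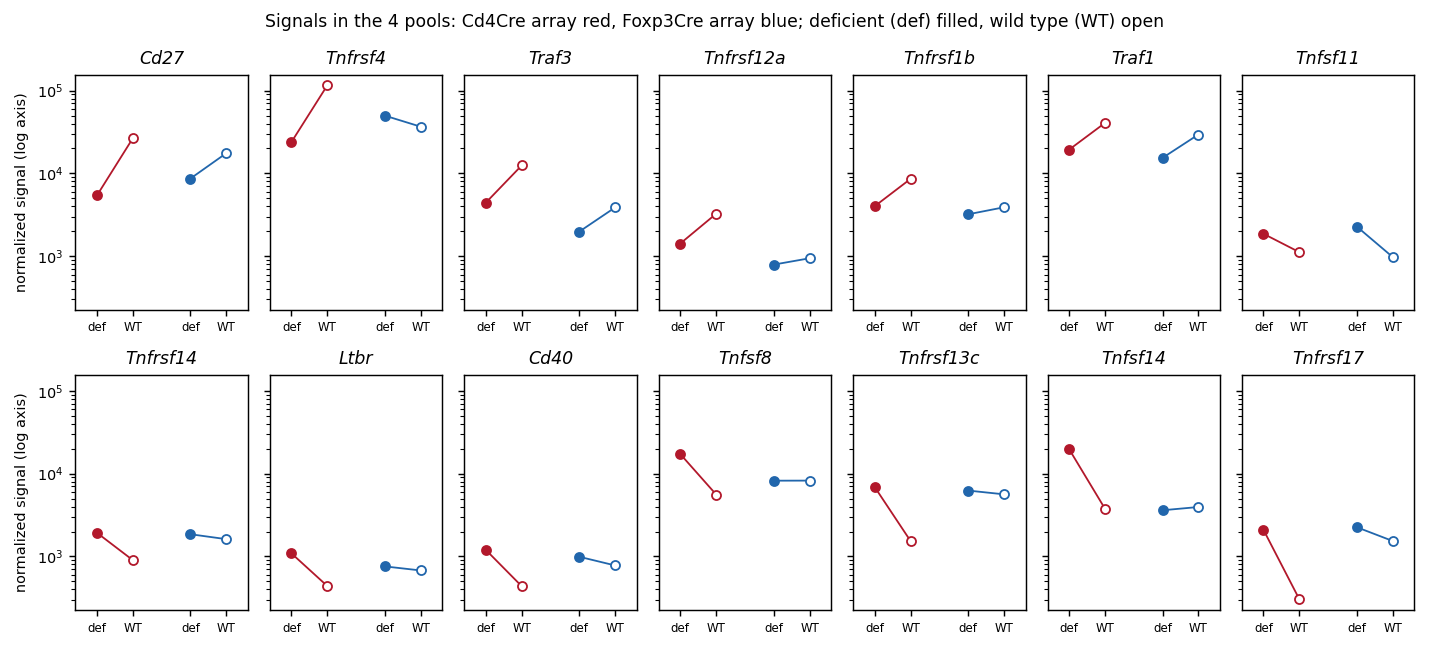
Normalized signal (log axis, array units) of the 14 members at least 2-fold higher or lower on either array, in the deficient (def, filled) and wild-type (WT, open) pool of the Cd4Cre array (red) and the Foxp3Cre array (blue), 1 pool per point and ordered by the Cd4Cre ratio. Tnfrsf4 read 23913 in deficient and 116145 in wild-type cells in the Cd4Cre system but 49816 and 36607 in the Foxp3Cre system, and Tnfrsf17 read 2096 and 303 in the Cd4Cre system.

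The ligands of the costimulatory receptors lay mostly above wild type in Cd4Cre-deficient cells. Of 7 detected, 2 were at least 2-fold higher while none was lower by that much, and the median log2 ratio was 0.72 (0.75 with median centring, 1.21 with the software's ratio). Of all detected genes, 11.4% were at least 2-fold higher and 10.6% lower, with a median of −0.05. For Foxp3Cre 5 of these ligands were detected, and their median was −0.13 with loess but 0.24 with median centring. None reached 2-fold there, where 2.93% of all detected genes were higher and 11.5% lower by that much. Tnfsf14 (LIGHT), which binds Tnfrsf14 and Ltbr, read 19822 in Cd4Cre-deficient cells and 3769 in wild-type cells, 5.26-fold higher (2.39, software error 0.31). Tnfsf14 read 3614 in Foxp3Cre-deficient cells and 3956 in wild-type cells (−0.13). Tnfsf8, the ligand of Tnfrsf8, read 17269 in Cd4Cre-deficient cells and 5593 in wild-type cells, 3.09-fold higher (1.63, software error 0.26), and 8229 and 8246 in Foxp3Cre-deficient and wild-type cells (−0.003). For both ligands the Cd4Cre-deficient pool stood above the other 3 pools, although pools of different arrays were set on 1 scale only by Aquantile normalization. NK markers, 5 of 5 at least 2-fold higher in Cd4Cre-deficient cells, summed to 107830 there and 8666 in wild type, and CD8 T cell markers to 63074 and 25891. In the Foxp3Cre pools 1 of 5 NK markers was at least 2-fold higher (Ncr1), the median was 0.57 with Eomes at −0.42, and the NK sum was 23833 in deficient and 20284 in wild-type cells, and the CD8 sum 56780 and 56026. Their part in the Tnfsf14 and Tnfsf8 values was not tested.

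Ligands of the receptors that were lower in Cd4Cre-deficient cells read as follows. Tnfsf4, the ligand of Tnfrsf4, was well above background only in the Cd4Cre-deficient pool, with 315 there and 170 in wild type, at least 1.68-fold higher. Cd70, the ligand of Cd27, read 395 in Cd4Cre-deficient cells and 451 in wild-type cells (log2 ratio −0.19), and 455 and 323 in Foxp3Cre-deficient and wild-type cells (0.49). Tnf itself, the ligand of Tnfrsf1b and Tnfrsf1a, read 6092 in Cd4Cre-deficient cells and 4259 in wild-type cells (0.52), and 1485 and 1757 in Foxp3Cre-deficient and wild-type cells (−0.24). Neither Cd70 nor Tnf reached 2-fold on either array, and for Tnfsf4 the bound leaves this undecided. Lta had ratios of −0.04 and −0.14 on the Cd4Cre and Foxp3Cre arrays, which turned to 0.27 and 0.24 under median centring. Tnfsf9, the ligand of Tnfrsf9, had 0.72 for Cd4Cre and was not detected on the other array. Tnfsf9, Cd70 and Tnfsf14 lie in a row on chromosome 17, with their probes 42.5 and 40.1 kb apart, and gave 0.72, −0.19 and 2.39 on the Cd4Cre array.

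The receptors of BAFF and APRIL, which are known for the survival of B cells and plasma cells, held 2 of the highest ratios among members in Cd4Cre-deficient cells. Tnfrsf17 (BCMA) read 2096 in Cd4Cre-deficient cells and 303 in wild-type cells, 6.92-fold higher (log2 ratio 2.79, software error 0.40), the highest ratio of any member with loess. With median centring Tnfrsf17 had 2.69, below Tnfsf14 at 2.78, and the software's ratio for Tnfrsf17 was 3.64. Tnfrsf13c (BAFF receptor), whose upstream sequence is printed above, read 6907 in Cd4Cre-deficient cells and 1534 in wild-type cells, 4.50-fold higher (2.17, software error 0.29). The third receptor, Tnfrsf13b (TACI), read 4477 in Cd4Cre-deficient cells and 4538 in wild-type cells (−0.02), and 0.37 on its other probe, so the family's receptors were not shifted alike. Tnfrsf17 read 2252 in Foxp3Cre-deficient cells and 1535 in wild-type cells (0.55). Tnfrsf13c read 6252 in Foxp3Cre-deficient cells and 5630 in wild-type cells (0.15), and Tnfrsf13b read 8280 and 7326 (0.18). For Tnfrsf17 and Tnfrsf13c the Cd4Cre wild-type pool stood below each of the other pools, on a scale shared between arrays only through Aquantile normalization. The ligand Tnfsf13b (BAFF) had 0.42 and 0.83 on the Cd4Cre and Foxp3Cre arrays, and its other probe was too dim in Cd4Cre-deficient cells for a fold (136 there and 211 in wild type). The probe named Tnfsf12-tnfsf13, a read-through of the TWEAK and APRIL genes, had 0.93 and 0.77, and no probe was named for Tnfsf13 alone. B cell markers are given beside these receptors: on the Cd4Cre array their summed signal was 64286 in deficient cells and 23153 in wild-type cells, with Ms4a1 and Cd79b at least 2-fold higher, Cd79a at 0.64, Cr2 at 0.97 and Pax5 not detected. That sum was 71915 in Foxp3Cre-deficient cells and 71777 in wild-type cells. Their part in the result was not tested.

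Cd40, the receptor through which helper T cells license B cells and dendritic cells, read 1199 in Cd4Cre-deficient cells and 436 in wild-type cells, 2.75-fold higher (log2 ratio 1.46, SD over 10 spots 0.048). Cd40 read 991 in Foxp3Cre-deficient cells and 778 in wild-type cells (0.35). Its ligand Cd40lg, made by activated CD4 T cells, read 378 in Cd4Cre-deficient cells and 527 in wild-type cells (−0.48), and 402 and 415 in Foxp3Cre-deficient and wild-type cells (−0.05). Ltbr, the lymphotoxin beta receptor, known mainly from stromal and myeloid cells, read 1089 in Cd4Cre-deficient cells and 438 in wild-type cells, 2.48-fold higher (1.31). Ltbr read 758 in Foxp3Cre-deficient cells and 677 in wild-type cells (0.16). Ltb, its ligand subunit, read 176313 in Cd4Cre-deficient cells and 182916 in wild-type cells (−0.05), and 154600 and 191510 in Foxp3Cre-deficient and wild-type cells (−0.31). Among all members, median centring moved Ltb most on both arrays, to 1.49 and 1.13. Of the 5 genes of the lymphotoxin group (Lta, Ltb, Ltbr, Tnfsf14, Tnfrsf14), 3 were at least 2-fold higher in Cd4Cre-deficient cells and none on the Foxp3Cre array, against 11.4% and 2.93% of all detected genes. Summed myeloid markers read 474964 in Cd4Cre-deficient cells and 65008 in wild-type cells, and dendritic markers 16991 and 4663. In the myeloid sum of deficient cells, Lyz2 gave 235760 and S100a9 180246. Of the 8 myeloid markers 5 were at least 2-fold higher, but Csf1r (−1.505) and Cd14 (−1.05) were at least 2-fold lower, and Adgre1 had −0.51. In the Foxp3Cre pools the same sums were 272894 and 157367 for myeloid markers and 6834 and 6709 for dendritic markers in deficient and wild-type cells, and their part in the Cd40 and Ltbr values was not tested.

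Tnfsf11 (RANKL), which drives osteoclasts and lymphoid organ development, was the single member at least 2-fold higher in Foxp3Cre-deficient cells. It read 2271 in Foxp3Cre-deficient cells and 972 in wild-type cells, 2.34-fold higher (log2 ratio 1.22, software error 0.24), with 1.25 on its other probe. In the Cd4Cre pools it read 1863 in deficient cells and 1116 in wild-type cells (0.74, and 0.68 on the other probe). Each deficient pool read above its own wild-type pool. Its receptor Tnfrsf11a (RANK) read 487 in Cd4Cre-deficient cells and 273 in wild-type cells (0.84), and on the Foxp3Cre array it was well above background only in wild type, where no fold could be given. The decoy receptor Tnfrsf11b (osteoprotegerin) was not detected. Among the marker lists, 2 of 3 mast cell markers (Cpa3, Mcpt4; list sum 2660 in deficient and 814 in wild-type cells) and 3 of 8 myeloid markers (S100a8, S100a9, Mpo) were at least 2-fold higher on the Foxp3Cre array, with the myeloid marker Csf1r at least 2-fold lower (−1.20), and their part in the Tnfsf11 value was not tested.

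A list of 11 genes held death receptors, decoys, ligands and, as the receptor of TWEAK, Tnfrsf12a. Of these, 9 were detected on the Cd4Cre array, and only Tnfrsf12a had a measured ratio at least 2-fold from wild type. Tnfrsf10b and Tnfrsf22 were above background only in wild type there, which leaves 2-fold undecided for them. The software's ratio for Tnfrsf10b was −1.03. Of all detected genes, 11.4% were at least 2-fold higher and 10.6% lower. Tnfrsf12a (Fn14), the receptor of TWEAK, read 1419 in Cd4Cre-deficient cells and 3256 in wild-type cells, 2.29-fold lower (log2 ratio −1.20), and 790 and 943 in Foxp3Cre-deficient and wild-type cells (−0.26). Tnfrsf1a, the death-domain receptor of TNF, read 6943 in Cd4Cre-deficient cells and 5697 in wild-type cells (0.29), but 4682 in Foxp3Cre-deficient cells and 9244 in wild-type cells, 1.97-fold lower (−0.98; −0.55 under median centring). Fas read 6100 in Cd4Cre-deficient cells and 10055 in wild-type cells (−0.72), and 9977 and 6947 in Foxp3Cre-deficient and wild-type cells (0.52). A second Fas probe gave 0.30 for Cd4Cre and 0.62 for Foxp3Cre, so no direction can be given for Fas in the Cd4Cre system. Tnfsf10 (TRAIL) was 1.95-fold and 1.75-fold higher in Cd4Cre-deficient and Foxp3Cre-deficient cells than in wild type (0.96 and 0.81), below 2-fold in each. Its receptor Tnfrsf10b was well above background only in wild-type cells of the Cd4Cre array, at least 1.28-fold lower in deficient cells. Tnfrsf21 (DR6) had ratios of 0.29 and 0.61, and the decoy receptor Tnfrsf26 −0.38 and 0.35. Tnfrsf22 was above background only in wild type on the Cd4Cre array, with no fold there, and had 0.43 on the Foxp3Cre array. Of the receptors outside these groups, Ngfr had 0.24 for Cd4Cre and was at least 1.13-fold lower in Foxp3Cre-deficient cells. Tnfrsf19 was at least 1.04-fold lower in Cd4Cre-deficient cells and had no fold on the Foxp3Cre array.

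**Figure D3:**
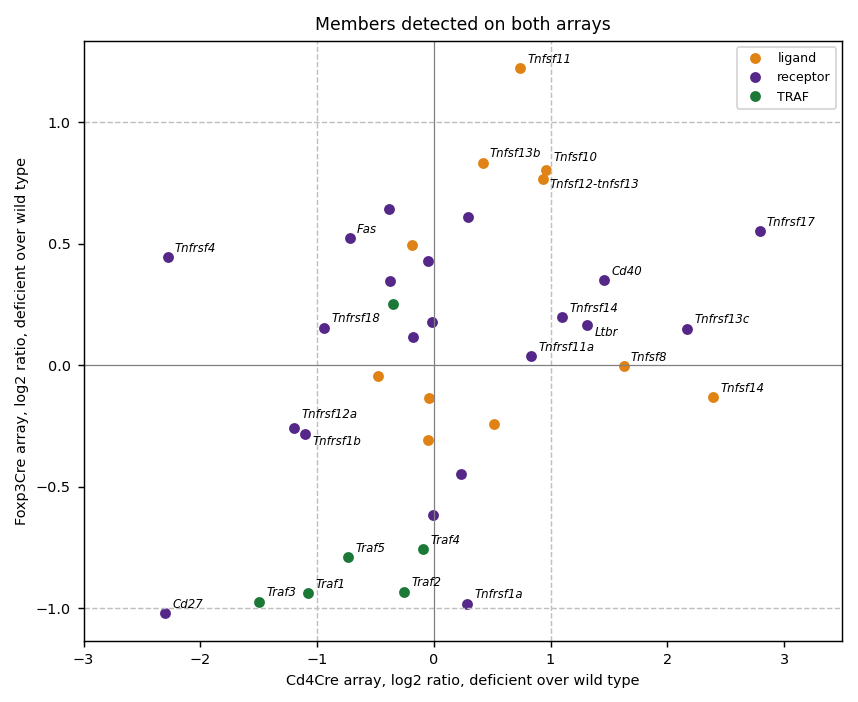
Log2 ratio of deficient over wild type on the Foxp3Cre array (vertical axis) against the Cd4Cre array (horizontal axis) for the 38 members detected on both, by ligand, receptor and TRAF; dashed lines mark 2-fold. Cd27 sits at −2.30 and −1.02, Tnfrsf4 at −2.28 and 0.44, and 5 of the 6 TRAFs lie below 0 on both axes. Of all 14375 genes detected on both arrays, 5448 were below 0 on both.

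All 6 TRAFs read below wild type in Cd4Cre-deficient cells and 5 of 6 in Foxp3Cre-deficient cells, the exception being Traf6. Of all 14375 genes detected on both arrays, 5448 were below 0 on both. The TRAFs had a median log2 ratio of −0.54 and −0.86 on the Cd4Cre and Foxp3Cre arrays with loess. All detected genes had −0.05 and −0.08. With median centring the TRAF medians were −0.24 and −0.25, and 4 of 6 and 5 of 6 stayed below 0. Traf3, the negative regulator named above, read 4430 in Cd4Cre-deficient cells and 12502 in wild-type cells, 2.82-fold lower (−1.50, software error 0.25). Traf3 read 1978 in Foxp3Cre-deficient cells and 3881 in wild-type cells, 1.96-fold lower (−0.97, software error 0.22). Both ratios kept their sign under median centring, at −1.16 and −0.74. Traf1, an NF-kappaB-induced adaptor, read 19330 in Cd4Cre-deficient cells and 40702 in wild-type cells, 2.11-fold lower (−1.07). In the Foxp3Cre pools it read 15382 in deficient cells and 29485 in wild-type cells, 1.92-fold lower (−0.94). Under median centring the Traf1 ratios shrank to −0.29 and −0.17. Traf2, which carries the ubiquitin ligases Birc2 and Birc3 to the receptors, had −0.25 and −0.93, with 0.25 and −0.36 under median centring. Traf5 had −0.73 and −0.79, with −0.19 and −0.22 under median centring. Traf4 had −0.09 and −0.76, with 0.39 and −0.28 under median centring. Traf6, which also serves Toll-like and interleukin-1 receptors, had −0.35 and 0.25.

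With both arrays in 1 fit, the mean ratio of each gene was tested against 0 with limma and Benjamini-Hochberg adjustment over the 14375 genes detected on both. None was called at an adjusted p of 0.05, members included, while 3252 genes (22.6%) and 10 of 38 members (26.3%) had an unadjusted p under 0.05. With loess, Cd27 had the lowest limma adjusted p of the members, 0.1015, with a mean log2 ratio of −1.66 (SE 0.40) and lower in both deficient pools. Traf3 followed with −1.23 (SE 0.34, limma adjusted p = 0.110), then Tnfrsf17 with 1.67 (SE 0.51, limma adjusted p = 0.126), Traf1 with −1.01 (SE 0.33, limma adjusted p = 0.137) and Tnfsf11 with 0.98 (SE 0.34, limma adjusted p = 0.149). Each of these had the same sign in both Cre systems, which ranking by a test of the mean over both arrays favours. In this fit 1 residual degree of freedom carries the spread, and a Cre-specific difference counts as error. With median centring the order changed. Ltb then had the lowest limma adjusted p of the members (0.0617), followed by Tnfrsf17 (0.0728), while Cd27 had 0.124 and Traf1 0.671. With loess, 23 of the 38 members (60.5%) had the same sign on both arrays, 11 above 0 and 12 below 0, against 68.1% of all genes detected on both.

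**Figure D4:**
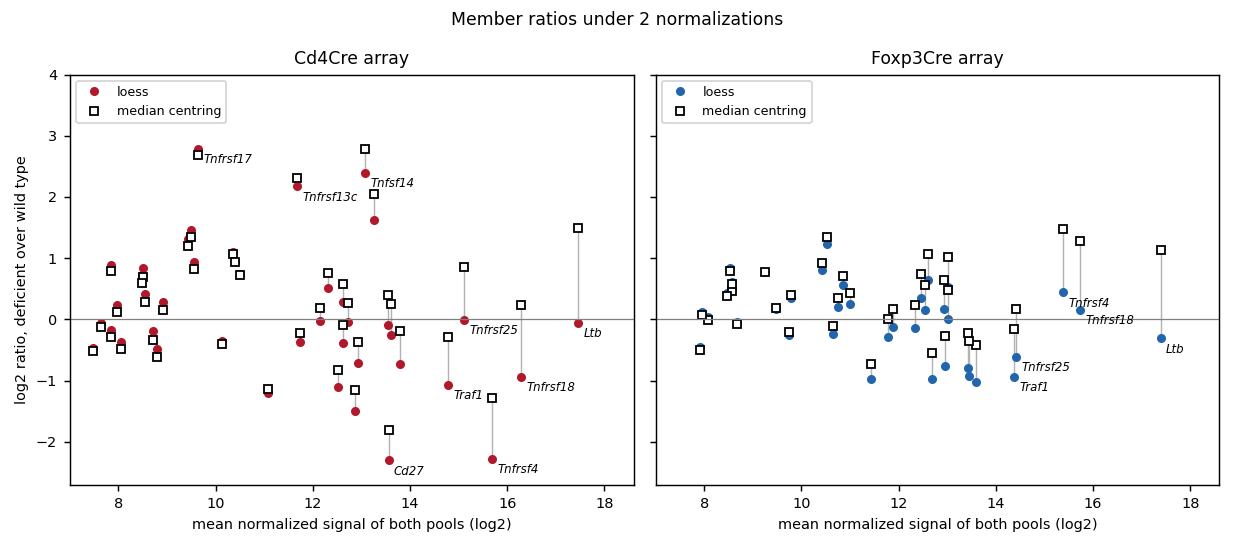
Log2 ratio of deficient over wild type of each detected member against its mean normalized log2 signal, with loess (filled circles) and with median centring (open squares) joined by a line, for the Cd4Cre array (left) and the Foxp3Cre array (right). The gap widens with signal: for Ltb it runs from −0.05 (loess) to 1.49 (median centring) for Cd4Cre and from −0.31 to 1.13 for Foxp3Cre.

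Genes that carry the signal inside the cell were read from a list of 51 with a probe, of which 49 were detected for Cd4Cre and 50 for Foxp3Cre. At a threshold of 2-fold, 3 stood higher and 11 lower in Cd4Cre-deficient cells than in wild type (median log2 ratio −0.44, and −0.12 with median centring), against 11.4% and 10.6% of all detected genes. In the Foxp3Cre system 1 stood higher and 11 lower (median −0.40, which turned to 0.12 with median centring), against 2.93% and 11.5% of all detected genes. Tnfaip3 (A20), the NF-kappaB-induced enzyme that shuts TNF receptor signalling down, read 12082 in Cd4Cre-deficient cells and 195960 in wild-type cells, 16.2-fold lower (−4.02, and −3.05 with median centring). Tnfaip3 read 8469 in Foxp3Cre-deficient cells and 15397 in wild-type cells (−0.86, and −0.28 with median centring). The Cd4Cre wild-type pool thus stood above each of the other pools. Pools of different arrays share a scale only through Aquantile normalization. Its partner Tnip1 had −1.69 and −0.74 on the Cd4Cre and Foxp3Cre arrays, and the inhibitor Nfkbia had −1.13 and −0.57, which turned to 0.18 and 0.61 with median centring.

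With loess, the list held 49 genes detected on both arrays, of which 5 lay at least 2-fold lower on both, against 4.56% of all genes so detected, and with median centring none was. They were the kinases Map3k1 (log2 ratio −1.24 and −1.04 on the Cd4Cre and Foxp3Cre arrays) and Ikbkb (−1.52 and −1.13), the linear ubiquitin ligase Rnf31 (−1.11 and −1.16), the NF-kappaB subunit Rela (−1.19 and −1.55) and the TNF receptor adaptor Madd (−1.07 and −1.29). Ikbkb, the kinase that marks the NF-kappaB inhibitor for decay, read 3397 in Cd4Cre-deficient cells and 9747 in wild-type cells, and 2365 and 5170 in Foxp3Cre-deficient and wild-type cells. Tifa, an adaptor of Traf6, was the one gene of the list at least 2-fold higher on both with loess (median centring added Siva1), with 2747 in Cd4Cre-deficient cells and 684 in wild-type cells (2.01), and 3042 and 1390 in Foxp3Cre-deficient and wild-type cells (1.13). Siva1, which binds the tail of Cd27, read 14989 in Cd4Cre-deficient cells and 3725 in wild-type cells (2.01), and 16948 and 13199 in Foxp3Cre-deficient and wild-type cells (0.36, and 1.02 with median centring). Casp8, the initiator caspase of death receptors, had −1.49 for Cd4Cre and 0.04 for Foxp3Cre, and the necroptosis effector Mlkl had 1.23 and 0.18. Map3k14, the kinase that Traf3 keeps low at the protein level, had −0.76 and −1.02, and Relb of the same pathway −0.37 and −1.08. With loess Daxx (−1.70) and Rbck1 (−1.67) were the lowest of the list on the Foxp3Cre array, while median centring gave −0.71 for Daxx, −1.07 for Rbck1 and −1.05 for Rela. Traf3ip3, a TRAF3-binding protein, had −1.69 and −0.77, the kinase adaptor Tab1 had −0.79 and −1.30, and Trafd1 had 0.04 and −1.26. Median centring gave −0.94 and 0.09 for Traf3ip3, −0.38 and −0.84 for Tab1, and 0.55 and −0.85 for Trafd1. With it, only Ikbkb and Tnfaip3 of the list were at least 2-fold lower on the Cd4Cre array, and only Rbck1 and Rela on the Foxp3Cre array. Tank had −1.01 and 0.60, but its probes ran from −1.01 to 0.04 for Cd4Cre and from −1.14 to 1.31 for Foxp3Cre. Adam17, the sheddase of TNF and its receptors, was 2.23-fold higher in Cd4Cre-deficient cells (1.16) and had −0.13 on the Foxp3Cre array. Fas ligand (Fasl), named outside the rule, had 0.66 and 0.61.

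**Figure D5:**
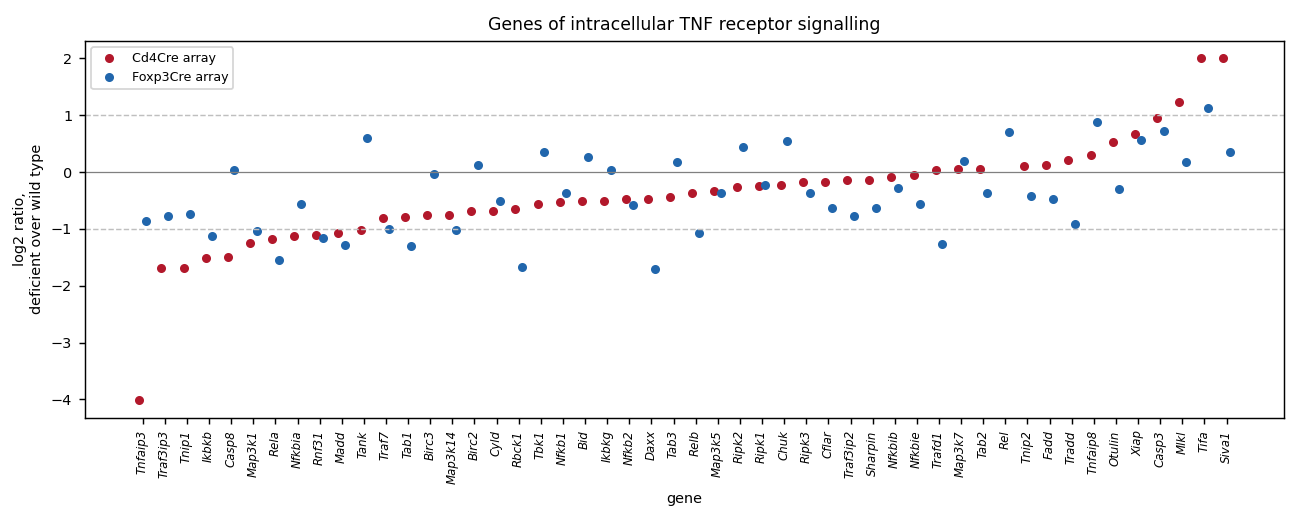
Log2 ratio of deficient over wild type of the genes of intracellular TNF receptor signalling detected on at least 1 array, ordered by the Cd4Cre value, for the Cd4Cre array (red) and the Foxp3Cre array (blue), 1 array per point with loess normalization; dashed lines mark 2-fold. Tnfaip3 stands lowest at −4.02 on the Cd4Cre array, and Tifa and Siva1 highest at 2.01.

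Members that lie close together in the genome did not share a ratio throughout. Besides Tnfrsf4 and Tnfrsf18, the probes of Ltb, Tnf and Lta lie 3.64 and 3.42 kb apart on chromosome 17 and gave log2 ratios of −0.05, 0.52 and −0.04 for Cd4Cre and −0.31, −0.24 and −0.14 for Foxp3Cre. The probes of Cd27, Ltbr and Tnfrsf1a lie 73.5 and 55.7 kb apart on chromosome 6. There Cd27 was 4.92-fold lower and Ltbr 2.48-fold higher in Cd4Cre-deficient cells, while Tnfrsf1a had 0.29. The distances are between probes on the mm9 assembly that the files use.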

How the data were processed

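Expression was read from 2 two-colour Agilent arrays with 60-base probes. Per the labels' protocols, amplified RNA was labelled by the Kreatech ULS method. Per the file headers, Feature Extraction 10.5.1.1 (Cd4Cre) and 10.7.3.1 (Foxp3Cre) quantified the scans; the submitters' processing notes give Agilent Feature Extraction 10.5.1. What the authors deposited per spot is the mean and background intensity of each channel, the software's log10 ratio (red over green), the error of that ratio, and a p-value from the software's single-array error model, which was not used here. In the authors' deposited value table every log10 ratio was the same as in the scanner files (largest difference 0; median 0 on each array), so scale and direction follow from the match.

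Starting from the intensities, normexp (offset 50) corrected the background, and loess within the array normalized the log2 ratios (limma 3.58.1, R 4.3.3), with control spots at weight 0. Spots marked as outliers (137 for Cd4Cre and 155 for Foxp3Cre, 3 and 1 of them of members) were left out; 0 gene spots were saturated. Spots of a probe were averaged. Signals per pool are values after loess and Aquantile. A RefSeq table of GRCm38.p6 supplied names, by accession for 56 and by symbol for 9 of the 65 member probes. Probe positions are on mm9, as in the files, and the exon or UTR a probe lies in was not determined. Of the members, 15 had several probes; other probes are stated where they differ in sign or by over 1 log2 unit. With only 1 channel above background, the fold is a bound: the dim side was taken as its measured signal or, if that was lower, as the weakest signal still called above background in that channel, which leaves it open to dye bias. Counts at 2-fold carry no test. With limma (intercept only, Benjamini-Hochberg), the mean over arrays was tested against 0; the fit was tested on simulated data.

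Members and lists were chosen with earlier results of these data known. Named were members at least 2-fold on either array, their ligands or receptors, the TRAFs, and genes of the pathway lists at least 2-fold on either array. The 14 other detected members (−0.94 to 0.96 for Cd4Cre; −0.98 to 0.81 for the 12 detected for Foxp3Cre) and Fasl were named after their values were seen. Alternatives varied the background correction, normalization, probe summary, dim-probe filter and limma's intensity trend. A B cell marker that is counted in its list is not reported here by name. The number of arrays limits the precision.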

Additional observations from a re-analysis of the deposited data

Results flagged for a closer look

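Tnfrsf4, Tnfsf14 and Tnfsf8 were at least 2-fold from wild type in the Cd4Cre system and had a ratio of the other sign in the Foxp3Cre system with loess. Tnfrsf4 had a log2 ratio of −2.28 for Cd4Cre and 0.44 for Foxp3Cre, and median centring kept both signs (−1.29 and 1.47). Tnfsf14 had 2.39 for Cd4Cre and −0.13 for Foxp3Cre, and median centring turned the second to 0.17. Tnfsf8 had 1.63 for Cd4Cre and −0.003 for Foxp3Cre, which is level with wild type within the software error of 0.20, and 0.05 with offset 10, 0.11 with the software's ratio and 0.48 with median centring, so no opposite direction can be given for it. With 1 array per Cre system these differences were not tested.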

How the results depend on the processing

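Of the 13 members at least 2-fold from wild type on the Cd4Cre array, 13 stayed there without background subtraction, with offset 10, with the software's ratio and with either filter on dim probes, against 11 under median centring and 11 when probes were averaged. Members higher by 2-fold or more for Cd4Cre numbered 7, and 12 with the software's ratio. On the Foxp3Cre array those higher numbered 1, against 6 with median centring and 5 with the software's ratio. Those lower numbered 1, and 0 with offset 10, with median centring and with the software's ratio. Pathway genes higher on the Cd4Cre array numbered 3, against 5 with median centring, and those lower 11, against 2. On the Foxp3Cre array those higher numbered 1, against 4 with median centring and 3 with the software's ratio, and those lower 11, against 2 with median centring. The cause was not tested. Shares of all detected genes moved too. With median centring, 18.0% were at least 2-fold higher and 8.31% lower on the Cd4Cre array, and 13.5% and 6.73% on the Foxp3Cre array. With the software's ratio these shares were 15.1% and 18.7% for Cd4Cre, and 7.61% and 13.3% for Foxp3Cre. With loess they were 11.4% and 10.6%, and 2.93% and 11.5%. Of all 2-fold genes, 51.8% were higher on the Cd4Cre array (68.4% with median centring, 44.7% with the software's ratio) and 20.3% on the Foxp3Cre array (66.7% and 36.4%). No member was called by limma under any alternative, while over all genes 309 were with median centring and 34 with signal required in both channels of both arrays. No paired analysis was possible because each Cre system has 1 array, so no replicate block can be fitted; the pairing of a deficient with a wild-type pool is already in each array's ratio, whose mean limma tested. Leaving out an array leaves no test. Without a dye swap or a second array per system, dye, pool and genotype cannot be told apart, and dim members have bounds only.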
